A study of Mus musculus with 12 samples.

Results

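The Hox genes of the mouse were followed through the conversion of fat stroma into skin-like epithelium. They were chosen by symbol alone, as entries named Hox, a cluster letter from a to d and a number, with antisense and host transcripts left out. Described here are 38 Hox genes among the 24537 genes listed, 10 in HoxA, 10 in HoxB, 9 in HoxC and 9 in HoxD. The RNA came from 12 cultures, 3 in each of 4 groups.

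Hox genes encode homeodomain transcription factors that set the identity of a body region along the head-to-tail axis and along the limbs. They lie in 4 clusters, and their order on the chromosome follows the order in which they are used along the body: low paralog numbers act towards the head and high numbers towards the tail and the tips of the limbs. Adult fibroblasts and other stromal cells are known to keep a Hox pattern that reflects the site they come from, and this pattern is often called positional memory.

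All 12 cultures came from mice of the strain label Pdgfra-creERxLSL-tdTomato, so every group carries a tamoxifen-inducible Cre driven by Pdgfra and a Cre-dependent red reporter. Adipose-derived stromal cells (ADSCs) were Pdgfra-positive cells cultured from subcutaneous fat in medium with 10% serum. In vitro iSEPs (induced stratified epithelial progenitor cells) were epithelial cells made from such ADSCs in culture. In vivo iSEPs were grown out of epithelial tissue that Pdgfra-positive stromal cells had formed inside the animal. Keratinocytes were cultured from back skin. A keratinocyte medium without serum was used for every group but the ADSCs, so medium and cell type cannot be told apart in any comparison with ADSCs. Age, sex, the fat depot and the body site of the converted tissue are not given in the labels used here, nor are the factors used for conversion. Each number from 1 to 3 marks a mouse, and a number is shared by 1 culture of each group.

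The labelled identities matched their markers. The summed level of 10 stromal markers (Pdgfra, Vim, Col1a1, Col1a2, Col3a1, Postn, Thy1, Pdgfrb, Dpt and Lum) was 8850 to 11200 FPKM in ADSCs and 27.7 to 35.4 in keratinocytes. In vitro iSEPs had 91.7 to 306 and in vivo iSEPs 29.6 to 177. FPKM scales the reads of a gene to its exon length and to the total of the library. Summed over 10 keratinocyte markers (Krt5, Krt14, Trp63, Cdh1, Epcam, Col17a1, Itgb4, Grhl2, Perp and Dsp), the level of ADSCs was 13.4 to 15.4 FPKM and that of the epithelial libraries 12500 to 27100. Among in vivo iSEPs the library of mouse 3 differed from the other two, with the highest stromal sum of that group (177) and the lowest keratinocyte sum (12500), so results that rest on this library are also given without it. The part of its stromal RNA in them was not tested. Markers of other cell types were mixed. Tyr, Cd3e, Adipoq, Plin1 and Myod1, of melanocytes, T cells, adipocytes and muscle, were listed at 0 in all 12 libraries. Other members of those lists were present. The muscle actin gene Acta1 was at 83.6 to 101 FPKM in keratinocytes and at 70 in the in vivo iSEPs of mouse 3, and Fabp4 of fat cells averaged 20.9 in ADSCs and 15.3 in in vitro iSEPs. Cd68 of macrophages averaged 10.8 in in vitro and 15.3 in in vivo iSEPs against 1.6 in ADSCs, the melanocyte gene Mlana reached 2.12, and the endothelial Pecam1 was at 8.72 in the in vivo iSEPs of mouse 1. The part of these cell types in the Hox results was not tested. Depth was similar throughout, at 21050000 to 27820000 reads in listed genes per library.

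Upstream sequences of 4 members are shown because these genes carry the contrasts below. Hoxa9 and Hoxa10 were on in ADSCs and in vitro iSEPs and close to 0 in the other groups, while Hoxc4 and Hoxd9 were highest in in vivo iSEPs. Each run is the 250 bases before the annotated start (RefSeq, GRCm38.p6), 5′ to 3′ on the gene's strand, with CpG dinucleotides in capitals.
Hoxa9, chr6:52227371-52227620, minus strand: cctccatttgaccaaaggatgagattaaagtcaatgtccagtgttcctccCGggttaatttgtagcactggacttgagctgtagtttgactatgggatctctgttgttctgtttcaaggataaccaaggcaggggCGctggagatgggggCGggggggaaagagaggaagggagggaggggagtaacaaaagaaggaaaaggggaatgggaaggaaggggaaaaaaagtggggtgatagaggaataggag
Hoxa10, chr6:52240855-52241104, minus strand: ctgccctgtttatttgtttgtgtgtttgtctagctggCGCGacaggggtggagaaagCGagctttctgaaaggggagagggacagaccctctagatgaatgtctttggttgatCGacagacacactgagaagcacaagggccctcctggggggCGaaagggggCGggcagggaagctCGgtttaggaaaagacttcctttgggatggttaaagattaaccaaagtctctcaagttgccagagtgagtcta
Hoxc4, chr15:103034145-103034394, plus strand: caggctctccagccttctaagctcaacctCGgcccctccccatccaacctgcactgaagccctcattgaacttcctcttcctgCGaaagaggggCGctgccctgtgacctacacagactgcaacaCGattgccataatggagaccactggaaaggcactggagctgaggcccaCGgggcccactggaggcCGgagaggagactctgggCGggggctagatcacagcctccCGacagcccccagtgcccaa
Hoxd9, chr2:74697513-74697762, plus strand: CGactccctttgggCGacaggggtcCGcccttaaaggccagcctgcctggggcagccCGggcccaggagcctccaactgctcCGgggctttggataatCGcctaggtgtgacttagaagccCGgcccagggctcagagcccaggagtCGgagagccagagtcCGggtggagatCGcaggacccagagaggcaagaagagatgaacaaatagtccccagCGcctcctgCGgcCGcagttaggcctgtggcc

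These windows hold 3 CpG for Hoxa9, 7 for Hoxa10, 8 for Hoxc4 and 13 for Hoxd9. Only 22 of the 38 Hox genes had such a window. HoxC was represented by Hoxc4 alone and HoxB by Hoxb1, Hoxb4 and Hoxb8, so the windows are mainly those of HoxA and HoxD. Over these 22 genes the median was 12 CpG (2 to 35), beside a median of 6 over all 32851 windows of the same length. The letters TGATNNAT, the core of a joint Pbx and Hox site, were sought on both strands and stood in 3 of the 22 Hox windows and in 7.68% of all windows. None of the 4 windows shown holds these letters, the TATA-box letters TATAAA or the homeodomain core TAATTA (present in 12.4% and 4.84% of all windows). That says only that the letters are not in these windows.

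The 4 groups differed in which Hox genes they expressed and in how many genes of high number were among them. Of the 38 genes 19 reached 1 FPKM in all 3 libraries of ADSCs, 16 in those of in vitro iSEPs, 14 in those of keratinocytes and 12 in those of in vivo iSEPs. Of the 16 genes with paralog numbers 9 to 13, the tail-end group, ADSCs had 8, in vitro iSEPs 6, in vivo iSEPs 2 and keratinocytes 1 at that level. By mean FPKM the 4 highest of the 38 were Hoxc10, Hoxb9, Hoxc6 and Hoxc8 in ADSCs, and Hoxc6, Hoxc8, Hoxc10 and Hoxa9 in in vitro iSEPs. For in vivo iSEPs they were Hoxc6, Hoxc4, Hoxc8 and Hoxc5, and for keratinocytes Hoxb9, Hoxb7, Hoxb2 and Hoxb6. The samples are bulk cultures, so fewer cells expressing a gene and less of its RNA per cell cannot be told apart.

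**Figure D1:**
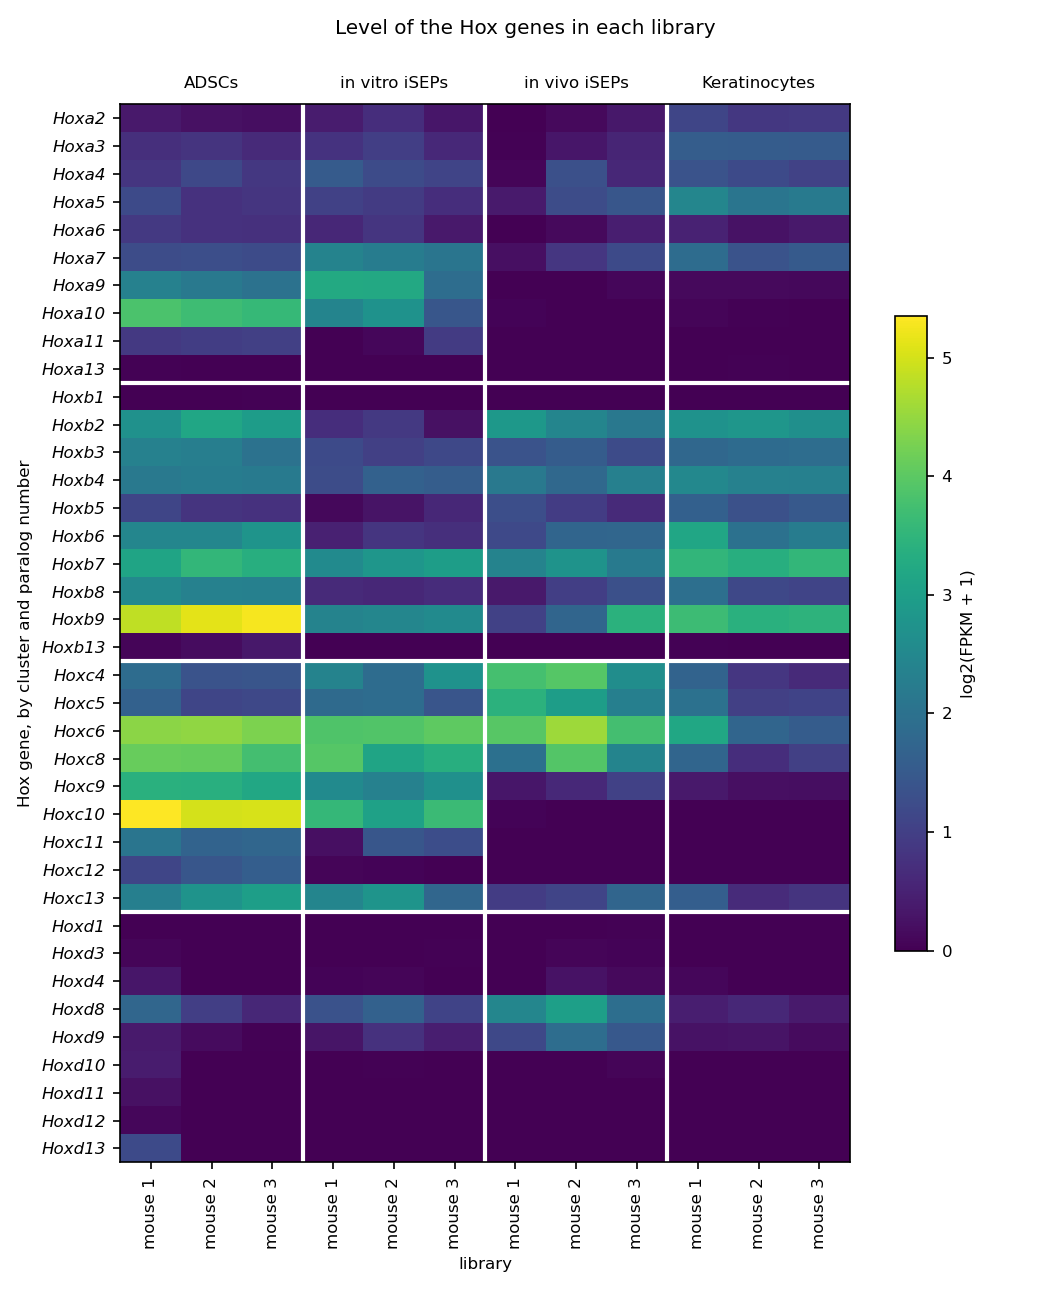
Level of the 38 Hox genes (rows, by cluster and paralog number) in the 12 libraries (columns, by group and mouse), colour giving log2(FPKM + 1). Hoxc10 is at 31.2 to 39.8 FPKM in ADSCs, 7.32 to 11.5 in in vitro iSEPs and at or near 0 in the other 6 libraries.

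Summed over the 38 genes, the Hox level was 186, 182 and 176 FPKM in the ADSCs of mice 1, 2 and 3. In vitro iSEPs had 92, 87.2 and 82.6, keratinocytes 79.2, 52.8 and 55, and in vivo iSEPs 67.4, 95.2 and 65.2. Every ADSC library lay above every other library. Paralogs 9 to 13 made up 57% ± 1.93 (SD, n = 3) of the summed level of ADSCs and 40.9% ± 2.85 of that of in vitro iSEPs. The share was 19.5% ± 1.09 for keratinocytes and 11.8% ± 9.77 for in vivo iSEPs. The wide spread of in vivo iSEPs came from mouse 3, at 23%, against 5.25% and 7.11% in the other two. By cluster, HoxC gave 14.4% ± 7.23 of the sum in keratinocytes, where HoxB gave 67.7% ± 6.15. In the other groups HoxC gave 50.3% ± 2.58 (ADSCs), 58.8% ± 5.63 (in vitro iSEPs) and 56.4% ± 9.96 (in vivo iSEPs).

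**Figure D2:**
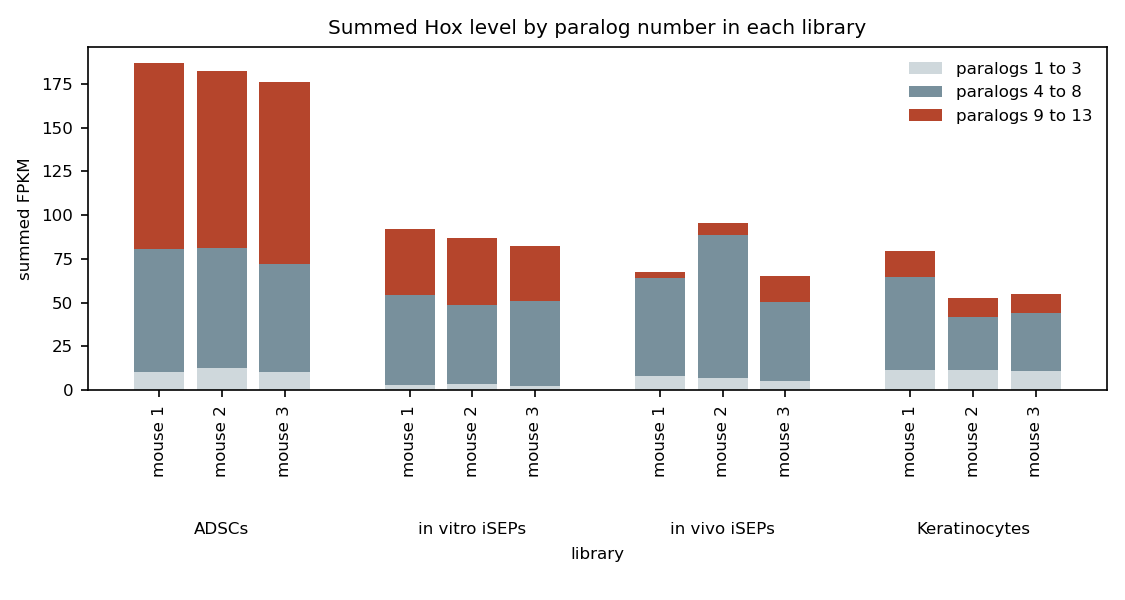
Summed FPKM of the Hox genes in each library (bars, grouped by cell type), split by paralog number. Paralogs 9 to 13 sum to 101 to 106 FPKM in ADSCs, 31.4 to 38.2 in in vitro iSEPs and 3.54 to 15 in the other 6 libraries.

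Tests were made with limma on log2(FPKM + 1), with Benjamini-Hochberg adjusted p over the 12364 genes that reached 1 FPKM in at least 3 libraries. A gene is called, and said to have risen or fallen, at an adjusted p below 0.05. Of the Hox genes 25 passed that filter, and 6 of these reached 1 FPKM throughout only 1 group. These were Hoxa3, Hoxa5 and Hoxb5 for keratinocytes, Hoxc11 and Hoxc12 for ADSCs, and Hoxd9 for in vivo iSEPs. All but Hoxa5 would have failed the filter without that group, so a difference was built into their passing. Hoxa5 also reached 1 FPKM in some libraries of every other group. Differences on the log2 scale are first group minus second and understate the change of low genes, and an adjusted p above the threshold does not show equal levels.

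The 13 members under the filter stayed low. Hoxa13, Hoxb1, Hoxd1 and Hoxd3 did not exceed 0.057 FPKM in any library, and Hoxb13, Hoxd4, Hoxd10, Hoxd11 and Hoxd12 did not exceed 0.323. Hoxa2 reached 1.18 FPKM, Hoxa6 0.856 and Hoxa11 1.02. Hoxa11 was at 0.838, 0.954 and 1.02 FPKM in ADSCs, at 0, 0.073 and 0.918 in in vitro iSEPs, and listed at 0 in every library of the other groups. Hoxd13, which patterns the tips of the limbs and the genital region, was at 1.32 FPKM (about 104 reads) in the ADSCs of mouse 1 and listed at 0 in those of mice 2 and 3. That same library alone among the ADSCs had reads of Hoxd10, Hoxd11 and Hoxd12 (0.323, 0.186 and 0.062 FPKM).

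The comparison of in vitro iSEPs with ADSCs asks what became of the stromal Hox pattern when the cells turned epithelial in a dish. The 8 HoxB genes tested fell, as did Hoxc9 to Hoxc12 and Hoxa10, while Hoxa9 and Hoxc13 were not called. Of the 25 genes tested 13 fell, or 52%, where 21.7% of all genes tested were called lower. Among these, Hoxc11 and Hoxc12 passed the filter only through ADSCs, so their falls are partly built in. Hoxa7 alone of the 25 rose, or 4%, where 32.1% of all genes were called higher. The median log2 difference was -0.55 over the Hox genes and 0.148 over all genes.

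All 8 HoxB genes tested fell, from Hoxb2 to Hoxb9. Hoxb2, a gene of the hindbrain and neck level, was at 5.5, 7.96 and 6.78 FPKM in ADSCs and 0.623, 0.843 and 0.174 in in vitro iSEPs. The groups did not overlap, and the log2 difference was -2.34 (SE 0.218, adjusted p = 5.01e-06). Hoxb9, a gene of the trunk, went from 27.6, 34 and 37.7 FPKM to 4.25, 4.48 and 4.94 (log2 -2.61, SE 0.448, adjusted p = 0.000524). Hoxb6 (log2 -1.89, adjusted p = 0.000165) and Hoxb8 (log2 -1.76, adjusted p = 0.000183) stood at 12.2% and 13% of their ADSC means. The smallest falls were those of Hoxb7 and Hoxb5, at adjusted p of 0.0197 and 0.0305. Hoxb7 was lost without the ADSCs of mouse 2 or 3 or the in vitro iSEPs of mouse 1 (adjusted p of 0.0501 to 0.0829). Hoxb5 was lost without the ADSCs of mouse 1 or 2, or with mouse 1 or 2 of the in vitro iSEPs left out (adjusted p of 0.0504 to 0.102).

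In HoxC, Hoxc10, a marker of the lumbar and hindlimb level, was at 39.8, 31.2 and 31.5 FPKM in ADSCs and 10.8, 7.32 and 11.5 in in vitro iSEPs. It fell by 1.71 on the log2 scale (SE 0.164, adjusted p = 6.53e-06) and yet remained the third most abundant Hox gene of these cells. Hoxc12 fell to almost nothing, from 1.16, 1.7 and 2.04 FPKM to 0.046, 0.04 and 0 (log2 -1.34, adjusted p = 8.64e-06). Hoxc9 (adjusted p = 0.00303) and Hoxc11 (adjusted p = 0.0142) were at 53% and 41.4% of their ADSC means. Hoxc9 was lost with a pseudocount of 0.1 in place of 1 (adjusted p = 0.0595), and Hoxc11 without the ADSCs of mouse 1 (adjusted p = 0.0502). Hoxc11 was uneven, at 0.171 FPKM in mouse 1 against 1.69 and 1.41. Hoxc4, Hoxc5, Hoxc6, Hoxc8 and Hoxc13 were not called (adjusted p of 0.104 to 0.378). Hoxc4 was called higher without the in vivo iSEPs of mouse 3 (adjusted p = 0.041), which brought the number of higher genes to 2. Hoxc6, at 13.6, 13.8 and 15.4 FPKM, was the most abundant Hox gene of in vitro iSEPs.

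In HoxA, of the 6 genes tested 1 rose and 1 fell. Hoxa9, a trunk and hindlimb gene, was at 4.13, 3.47 and 3.06 FPKM in ADSCs and 8.49, 8.39 and 2.77 in in vitro iSEPs. Mice 1 and 2 lay above all ADSC libraries and mouse 3 below, and the gene was not called (adjusted p = 0.0974). Without the in vitro iSEPs of mouse 3 it was called higher (adjusted p = 0.000176), which also made the number of higher genes 2. Hoxa10, its neighbour, fell from 13.2, 11.9 and 11.1 FPKM to 4.35, 5.59 and 1.68 (log2 -1.52, SE 0.263, adjusted p = 0.000556). Hoxa7 rose from 1.39, 1.45 and 1.34 FPKM to 4.24, 3.72 and 3.23 (log2 0.98, SE 0.229, adjusted p = 0.0039). Mouse 3 was the lowest in vitro iSEP library for Hoxa7, Hoxa9 and Hoxa10 alike.

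Stromal RNA in the in vitro iSEP cultures was set beside these levels. The 10 stromal markers stood at 0.63% to 10.5% of their ADSC means (median 1.45%), with Col1a1 at 0.63% and Pdgfra at 10.5%. The 8 Hox genes of paralogs 9 to 13 that reached 1 FPKM in every ADSC library stood at 1.75% to 184% (median 36.8%). Of these, Hoxc12 alone lay within the range of the stromal markers. Among the tested genes of lower paralog number, Hoxb2 alone lay within that range, at 8.1%. Hoxb6 and Hoxb8 stood just above it, at 12.2% and 13%. In the in vitro iSEPs of mouse 1, which had the lowest share of Col1a1 at 0.266%, Hoxa9 was at 239% and Hoxc10 at 31.5% of the ADSC mean. Hoxc11 and Hoxc12 were at 6.49% and 2.81% in that library, near its Pdgfra (5.81%) and Dpt (4.76%).

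**Figure D3:**
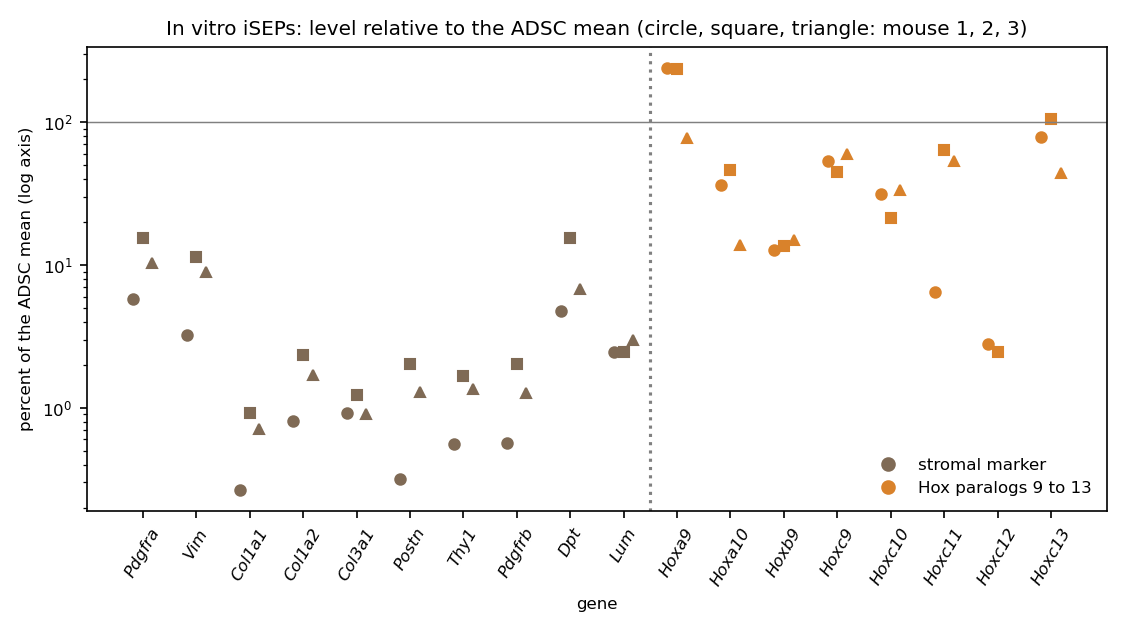
Level in each in vitro iSEP library as a percent of the ADSC mean (log axis) for 10 stromal markers and for the 8 Hox genes of paralogs 9 to 13 at 1 FPKM or more in all ADSC libraries. Stromal marker means lie between 0.63% and 10.5% and Hox means between 1.75% and 184%; the Hoxc12 value of mouse 3 is 0 and is not drawn.

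In vivo iSEPs against ADSCs sets cells converted inside the animal beside stroma of subcutaneous fat. The body site of the converted cells is not given, so conversion and site of origin cannot be told apart here. Hoxa9, Hoxa10 and Hoxc10 to Hoxc12 were at or near 0, while Hoxc4, Hoxc5, Hoxd8 and Hoxd9 rose. Of the 25 genes tested 14 fell, or 56%, where 20% of all genes were called lower. Hoxc4, Hoxc5, Hoxd8 and Hoxd9 rose, 16% of those tested, where 27.6% of all genes were called higher. Of the genes that fell, Hoxc11 and Hoxc12 passed the filter only through ADSCs, and Hoxd9 passed it only through in vivo iSEPs. Their calls are partly built in, so both counts are a description. The median log2 difference was -0.83, and 0.136 over all genes.

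Of the 9 tested genes of paralogs 9 to 13, 8 fell and Hoxd9 rose. The filter let Hoxd9, Hoxc11 and Hoxc12 in only through the group where they are high, so this count is a description. Hoxc10 was at 0.037, 0 and 0 FPKM (2, 0 and 0 reads) in in vivo iSEPs against the ADSC values above (log2 -5.11, SE 0.164, adjusted p = 1.22e-09). Hoxa10 was likewise at 0.033, 0 and 0 FPKM (log2 -3.69, adjusted p = 6.19e-07), and Hoxa9 at 0, 0.011 and 0.062 (log2 -2.15, adjusted p = 0.000108). Hoxc11 and Hoxc12 were listed at 0 in all 3 libraries, where 1 read would be worth up to 0.0441 FPKM for Hoxc11 and 0.0479 for Hoxc12. Hoxc9 was low but present, at 0.249, 0.54 and 1.04 FPKM against 9.51, 9.41 and 8.23 (log2 -2.67, adjusted p = 3.79e-07). Hoxb9 fell to 1.06, 2.35 and 9.73 FPKM (log2 -3.01, adjusted p = 0.000207), with mouse 3 far above the other two. Hoxc13, a gene also needed in hair and nail, fell to 0.939, 1.13 and 2.34 from 3.99, 5.68 and 6.98 (log2 -1.42, adjusted p = 0.00409).

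**Figure D4:**
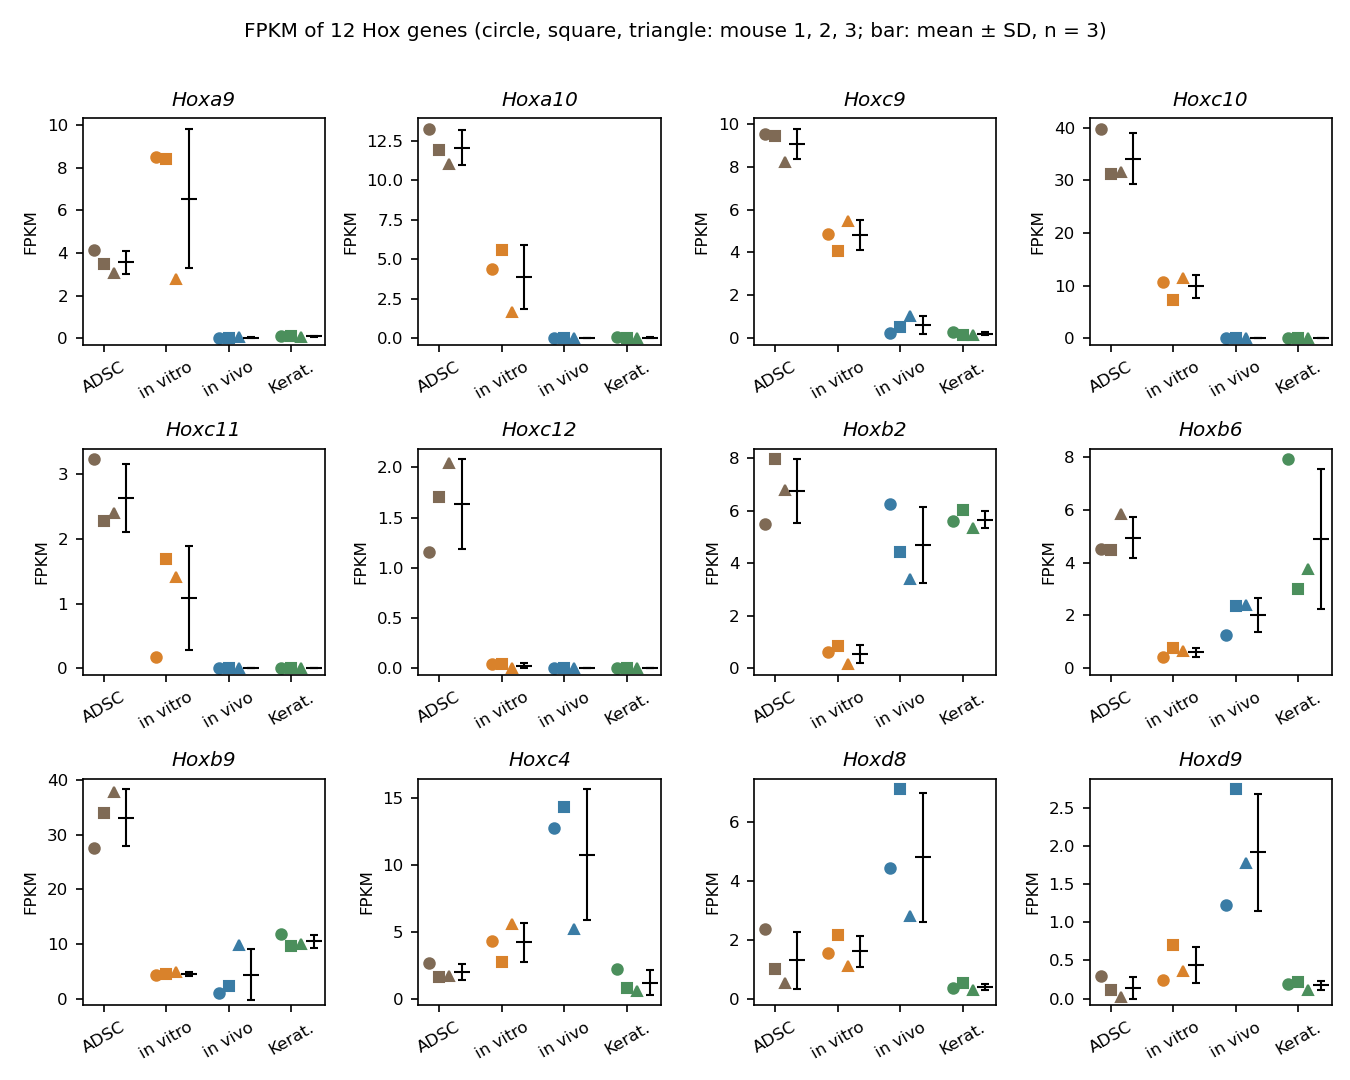
FPKM of 12 Hox genes in each library of the 4 groups (points by mouse, bar for mean ± SD, n = 3). Hoxa9, Hoxa10, Hoxc9, Hoxc10 and Hoxc11 have means of 1.09 FPKM or more in in vitro iSEPs and of 0.611 or less in in vivo iSEPs and keratinocytes; Hoxb2 has a mean of 0.547 in in vitro iSEPs and of 4.7 to 6.75 elsewhere.

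The 4 genes that rose are neighbours in pairs. Hoxc4, a gene of the neck and upper thorax, was at 2.69, 1.6 and 1.66 FPKM in ADSCs and 12.8, 14.4 and 5.2 in in vivo iSEPs (log2 1.89, SE 0.377, adjusted p = 0.00164). Hoxc5, next to it, rose from 2.17, 1.19 and 1.22 to 9.82, 6.85 and 3.96 FPKM (log2 1.59, SE 0.326, adjusted p = 0.00197). In HoxD, Hoxd8 rose from 2.38, 0.998 and 0.514 to 4.46, 7.13 and 2.81 FPKM (log2 1.35, SE 0.318, adjusted p = 0.00468). Hoxd9 rose from 0.299, 0.114 and 0.017 to 1.22, 2.74 and 1.78 FPKM (log2 1.33, SE 0.196, adjusted p = 0.000201). For each of these 4 genes the in vivo iSEP libraries lay above all ADSC libraries, and for all but Hoxd9 mouse 3 was the lowest of them. Over the 25 Hox genes tested, 18 did not overlap between these groups, and no such count was made over all genes.

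Hoxc6, at 14.7, 22.8 and 12.4 FPKM against 20.5, 21.1 and 18.7, was not called (adjusted p = 0.524) and was the most abundant Hox gene of in vivo iSEPs. Hoxc8 was spread widely, at 2.94, 14.1 and 4.3 FPKM against 16.3, 16 and 12.6. Its fall (log2 -1.22, adjusted p = 0.0418) was lost when mouse was a term in the fit, which makes the comparison within animals (adjusted p = 0.0597). It was also lost when any library but the in vivo iSEPs of mouse 2 was left out (adjusted p up to 0.149). The fall of Hoxa3 (0.028, 0.247 and 0.458 FPKM against 0.655, 0.752 and 0.565, adjusted p = 0.0395) was lost within animals too (adjusted p = 0.0559). Without the in vivo iSEPs of mouse 1 or 2, or any 1 ADSC library, its adjusted p was 0.0508 to 0.136.

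In HoxB 5 genes fell in in vivo iSEPs: Hoxb3, Hoxb6, Hoxb7, Hoxb8 and Hoxb9. Hoxb2, Hoxb4 and Hoxb5 were not called (adjusted p of 0.104, 0.64 and 0.828). Hoxb2 was at 6.27, 4.43 and 3.4 FPKM there. Hoxb8 was at 0.297, 0.976 and 1.49 FPKM against 4.71, 4.09 and 4.05 (log2 -1.51, adjusted p = 0.000621), and Hoxb3 stood at 44.2% of its ADSC mean (log2 -0.83, adjusted p = 0.000511). Against ADSCs the 10 stromal markers were at 0.0928% to 5.69% in in vivo iSEPs.

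Keratinocytes against ADSCs sets a skin epithelium of the back beside the stroma, as the reference for the 2 converted groups. The fat depot of the ADSCs is not given, so cell type and body site cannot be told apart here. Hoxa9, Hoxa10 and Hoxc9 to Hoxc12 did not exceed 0.29 FPKM in any keratinocyte library, while 8 of the 10 HoxB genes reached 1 FPKM in all 3 libraries. Of the 25 genes tested 11 fell, or 44%, where 20.7% of all genes were called lower. Hoxa3, Hoxa5 and Hoxb5 rose, 12% of those tested, where 32.8% of all genes were called higher. Of these, Hoxa3 and Hoxb5 passed the filter only through keratinocytes, so their rises are partly built in by it. Hoxc11 and Hoxc12, among the genes that fell, passed it only through ADSCs, so both counts are a description. The median log2 difference was -0.5, and 0.184 over all genes.

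Of the 9 tested genes of paralogs 9 to 13, 8 fell and Hoxd9 was not called (adjusted p = 0.872). The filter let Hoxc11 and Hoxc12 in only through ADSCs, so their falls are partly built in and this count is a description. Hoxc10, Hoxc11 and Hoxc12 were listed at 0 in all 3 keratinocyte libraries (adjusted p of 1.13e-09, 0.000115 and 6.65e-06). Hoxa10 was at 0.046, 0.016 and 0 FPKM (log2 -3.67, adjusted p = 5.88e-07), Hoxa9 at 0.098, 0.091 and 0.076 (log2 -2.06, adjusted p = 0.00013) and Hoxc9 at 0.29, 0.161 and 0.155 (log2 -3.06, adjusted p = 1.09e-07). Hoxb9 was the exception in level: it fell (log2 -1.57, adjusted p = 0.0122) but at 11.8, 9.56 and 9.99 FPKM was the most abundant Hox gene of keratinocytes.

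Of the 9 HoxC genes tested 7 fell in keratinocytes. Hoxc6 was at 8.17, 2.37 and 1.93 FPKM (log2 -2.23, SE 0.36, adjusted p = 0.000335), and Hoxc8 at 2.34, 0.614 and 1.01 (log2 -2.84, SE 0.444, adjusted p = 0.000266). Hoxc13 was at 2.01, 0.583 and 0.739 (log2 -1.67, adjusted p = 0.00134). The keratinocytes of mouse 1 were the highest of the 3 in every HoxC gene that was not 0. Hoxc4 and Hoxc5 were not called (adjusted p of 0.29 and 0.909).

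Of the HoxA genes Hoxa3 and Hoxa5 rose in keratinocytes, and Hoxa4 was not called (log2 0.26, adjusted p = 0.444). Hoxa5, which is active in the neck and chest region, was at 4.46, 3.21 and 3.51 FPKM against 1.29, 0.709 and 0.783 (log2 1.3, SE 0.251, adjusted p = 0.00119). Hoxa3, a gene of the throat organs, was at 2, 1.94 and 1.91 (log2 0.83, SE 0.153, adjusted p = 0.000841). Hoxb5, at 2.14, 1.5 and 1.81 FPKM against 1.16, 0.756 and 0.7, was called at an adjusted p of 0.0257 that did not hold with a common median in every library (adjusted p = 0.0794). Without the keratinocytes of mouse 1 or 3, or the ADSCs of mouse 2 or 3, the adjusted p was 0.0648 to 0.0876. Hoxb2, Hoxb4, Hoxb6 and Hoxb7 had means of 5.66, 4.24, 4.9 and 10.2 FPKM in keratinocytes and of 6.75, 3.59, 4.94 and 9.2 in ADSCs (adjusted p of 0.351 to 0.799).

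**Figure D5:**
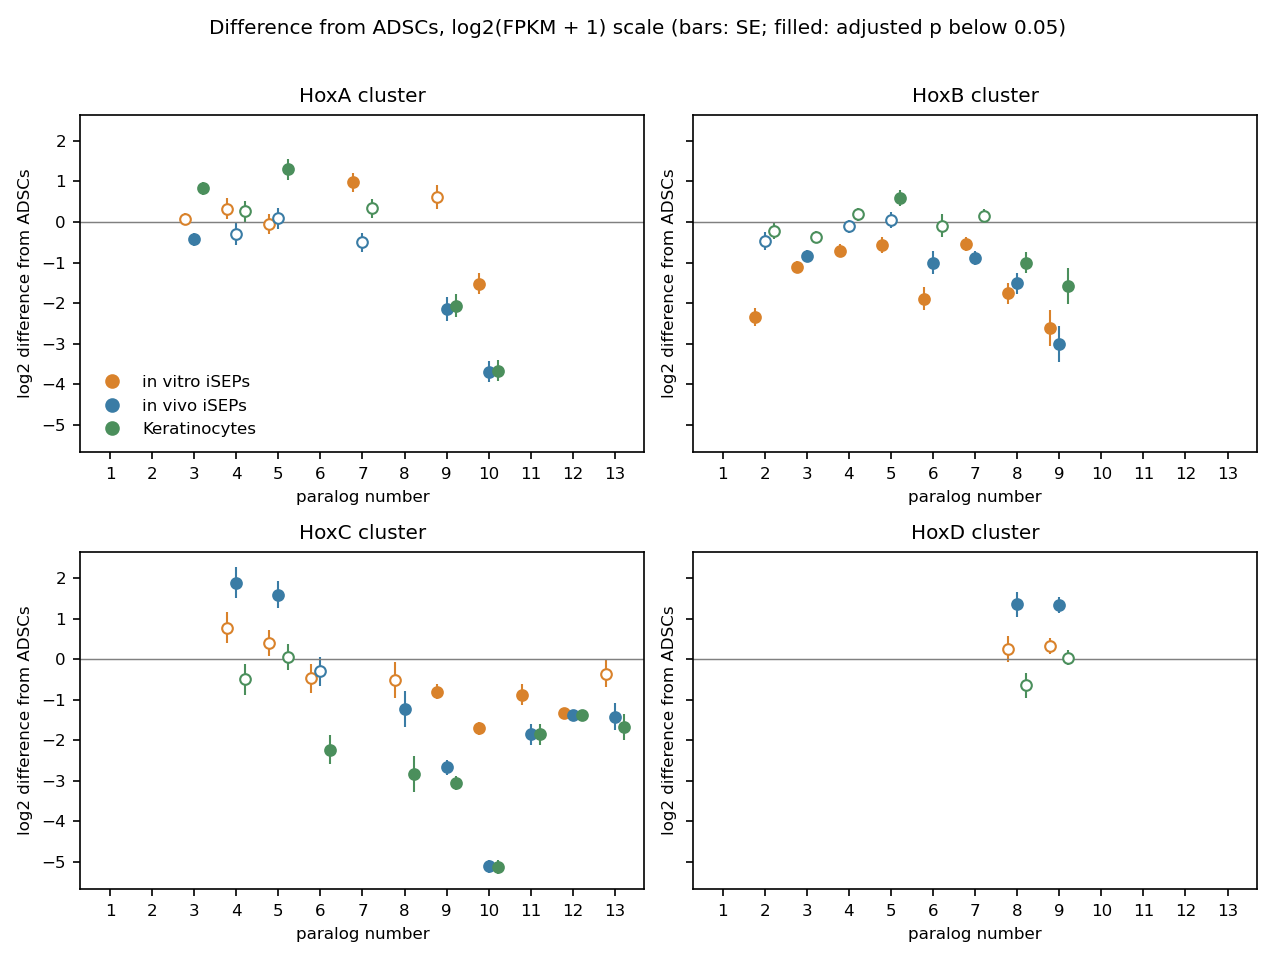
Log2 difference from ADSCs (points, with SE) of the 25 Hox genes tested, by paralog number in each cluster, for keratinocytes and both kinds of iSEP; filled points have an adjusted p below 0.05. Hoxc10 is at -1.71 for in vitro iSEPs, -5.13 for keratinocytes and -5.11 for in vivo iSEPs, and all 3 series share the ADSC libraries.

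Setting each kind of iSEP against keratinocytes asks where the converted cells differ from a skin epithelium grown in the same medium. The keratinocytes came from back skin, while the fat depot behind in vitro iSEPs and the site of in vivo iSEPs are not given. Conversion and body site therefore cannot be told apart in these comparisons either. In in vitro iSEPs 8 of the 25 genes were higher, or 32%, where 5.22% of all genes were called higher. Another 8 were lower, where 6.12% of all genes were called lower. Of these, Hoxa3 and Hoxb5 passed the filter only through keratinocytes, so their lower levels are partly built in and the count is a description. Those that were higher all belong to HoxC and the tail end of HoxA: Hoxa9, Hoxa10, Hoxc6, Hoxc8, Hoxc9, Hoxc10, Hoxc11 and Hoxc13. Those that were lower belong to HoxB (Hoxb2 to Hoxb7) and the head end of HoxA (Hoxa3 and Hoxa5).

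The largest difference from keratinocytes was that of Hoxc10 (log2 3.42, SE 0.164, adjusted p = 2.49e-06), a gene listed at 0 in every keratinocyte library. Hoxa9 was 74.2-fold higher by mean FPKM (log2 2.68, adjusted p = 0.000539) and Hoxc9 23.8-fold (log2 2.27, adjusted p = 0.000114). Hoxa10 (log2 2.16, adjusted p = 0.000943), Hoxc8 (log2 2.33, adjusted p = 0.00881) and Hoxc6 (log2 1.76, adjusted p = 0.012) also stood higher. Hoxc6 was lost without the keratinocytes of mouse 2 (adjusted p = 0.0577), which also brought the number of higher genes to 5. Hoxc11 and Hoxc13 on the higher side and Hoxb7 on the lower were each lost without most single libraries (adjusted p of 0.0601 to 0.118). Within animals Hoxc11 (adjusted p = 0.0361) and Hoxc13 (adjusted p = 0.0283) were lost, at 0.054 and 0.0531, and Hoxc4 was gained (0.0527 to 0.0485).

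On the lower side Hoxb2 stood at 0.547 ± 0.341 FPKM in in vitro iSEPs and 5.66 ± 0.333 in keratinocytes (log2 -2.13, SE 0.218, adjusted p = 0.000412). Hoxb6 (log2 -1.79, adjusted p = 0.00316), Hoxa5 (log2 -1.35, adjusted p = 0.00799), Hoxb5 (log2 -1.16, adjusted p = 0.00501), Hoxb4 (log2 -0.9, adjusted p = 0.00677) and Hoxa3 (log2 -0.77, adjusted p = 0.0108) followed. Hoxa3 was lost with a pseudocount of 0.1 (adjusted p = 0.0896). The 2 groups did not overlap in 22 of the 25 Hox genes tested, these 6 among them. No such count was made over all genes. The stromal markers moved with this comparison as well: 6 of the 9 tested were higher in in vitro iSEPs than in keratinocytes. Their part in the Hox differences was not tested, beyond the shares of ADSC levels given above.

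In vivo iSEPs differed from keratinocytes in fewer Hox genes. Of the 25 tested 5 were higher, or 20%, where 3.41% of all genes were called higher, and 4 were lower, or 16%, where 4.08% of all genes were called lower. The filter let Hoxd9 in only through in vivo iSEPs and Hoxa3 only through keratinocytes. Their differences here are partly built in, so both counts are a description. Hoxc4 (log2 2.39, adjusted p = 0.00404), Hoxd8 (log2 1.99, adjusted p = 0.00432), Hoxc6 (log2 1.93, adjusted p = 0.0094), Hoxc5 (log2 1.54, adjusted p = 0.017) and Hoxd9 (log2 1.28, adjusted p = 0.00337) were higher. Hoxd9 and Hoxd8 stood at 11.2-fold and 12.3-fold the keratinocyte mean, and Hoxc4 at 8.98-fold. Hoxd8 was at 0.357, 0.517 and 0.298 FPKM in keratinocytes, below every in vivo iSEP library.

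Hoxa3 (log2 -1.26, adjusted p = 0.00107), Hoxa5 (log2 -1.21, adjusted p = 0.0152), Hoxb7 (log2 -1.03, adjusted p = 0.00582) and Hoxa7 (log2 -0.84, adjusted p = 0.0497) were lower in in vivo iSEPs than in keratinocytes. Hoxa7 was lost within animals (adjusted p = 0.0843) and without any library of either group but the in vivo iSEPs of mouse 3 (adjusted p of 0.0676 to 0.165). The keratinocytes of mice 1, 2 and 3 each mattered here. Without mouse 1 or mouse 3, Hoxa5 and Hoxa7 were lost and 2 genes remained lower, while without mouse 2 Hoxc5 and Hoxc6 were lost and the higher genes numbered 3. Hoxc5 was also lost without the keratinocytes of mouse 3 or the in vivo iSEPs of mouse 2 (adjusted p of 0.08 and 0.0677). Without the in vivo iSEPs of mouse 3, Hoxb9 was called lower (adjusted p = 0.000198 in place of 0.079) and Hoxc8 higher (0.0393 in place of 0.0513). Of the tail-end genes near 0 in both groups, Hoxa10, Hoxc10, Hoxc11 and Hoxc12 had adjusted p of 0.975 to 1, and at this depth no difference between them was detectable.

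The comparison of in vivo with in vitro iSEPs sets the 2 kinds of converted cells side by side, and route of conversion and body site cannot be told apart in it. Few genes of any kind were called: 0.679% of all genes higher and 0.946% lower in in vivo iSEPs. Of the 25 Hox genes tested 2 were higher, or 8%, and 5 lower, or 20%. Hoxd9, among the higher, passed the filter only through in vivo iSEPs. Its call is partly built in, and the count of higher genes is a description. Lower were Hoxc10 (log2 -3.4, SE 0.164, adjusted p = 5.25e-06), Hoxa9 (log2 -2.76, SE 0.293, adjusted p = 0.0019), Hoxa10 (log2 -2.17, SE 0.263, adjusted p = 0.00441), Hoxc9 (log2 -1.87, SE 0.179, adjusted p = 0.00154) and Hoxa7 (log2 -1.48, SE 0.229, adjusted p = 0.0126). Higher were Hoxb2 (log2 1.88, SE 0.218, adjusted p = 0.00344) and Hoxd9 (log2 1, SE 0.196, adjusted p = 0.0332). The libraries of the groups did not overlap in 16 of the 25 Hox genes tested, these 7 among them. The share of all genes without overlap was not counted.

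Of these 7 calls, 6 held without any single library. Hoxd9 was lost when mouse 1 or 3 of the in vitro iSEPs or mouse 2 of the in vivo iSEPs was left out (adjusted p of 0.0787 to 0.141). Without the in vivo iSEPs of mouse 3 the number of higher genes was 5, with Hoxc4, Hoxc5 and Hoxd8 added, and Hoxb9 was called lower (adjusted p = 0.023 in place of 0.748). With mouse as a term Hoxc5 was called higher (adjusted p = 0.0374 in place of 0.104). Without the in vitro iSEPs of mouse 1, Hoxc11 was called lower (0.00539 in place of 0.0955). When only these 6 libraries were fitted, Hoxc10 alone was called among the Hox genes, and 1 gene in all. Of the stromal markers Postn, Col1a1, Col1a2, Col3a1 and Thy1 were called lower in in vivo iSEPs, and with mouse as a term Col3a1 alone kept its call.

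Hox proteins bind DNA together with cofactors of the TALE class (Pbx, Meis and Pknox). Of the 8 such genes tested 4 fell between ADSCs and in vitro iSEPs, 5 fell for in vivo iSEPs, and 5 fell and 1 rose for keratinocytes. Over all genes tested 21.7%, 20% and 20.7% were called lower in these comparisons. Pknox2 was at 4.37 FPKM in ADSCs and at 0.0477, 0.022 and 0.00333 in the 3 epithelial groups in that order (adjusted p of 2.82e-08, 2.63e-08 and 2.17e-08). Meis3 was at 9.21 against 1.55, 1.44 and 1.91 FPKM (adjusted p of 0.00129, 0.000852 and 0.00291), and Pbx3 at 9.15 against 2.44, 3.54 and 4.56 (adjusted p of 7.35e-05, 0.000604 and 0.00427).

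Polycomb proteins keep unused Hox genes silent and Trithorax proteins keep used ones active. Of 27 Polycomb genes tested 8 rose and 3 fell in in vitro iSEPs against ADSCs, 10 rose and 2 fell in in vivo iSEPs, and 13 rose and 1 fell in keratinocytes. Over all genes tested 32.1%, 27.6% and 32.8% were called higher, so the rises of in vitro iSEPs are below that share. Pcgf6, Ezh1 and Jarid2 rose in each, with log2 differences of 1.62, 1.19 and 1.35 in in vitro iSEPs and 1.17, 1.17 and 1.11 in in vivo iSEPs. Pcgf5 fell in all 3 comparisons, by log2 -1.26, -1.59 and -0.75 in the order of the counts (adjusted p of 0.000869, 0.00018 and 0.0182). Phc1 fell in both kinds of iSEP (adjusted p of 0.00391 and 0.0142), and Pcgf2 only in the in vitro kind (adjusted p = 0.0481). The falls stand beside 21.7%, 20% and 20.7% of all genes called lower. Ezh2, the main methyltransferase of histone H3 at lysine 27, rose in keratinocytes (log2 1.19, adjusted p = 0.0115). Cbx2 was lower in both kinds of iSEP than in keratinocytes (log2 -1 and -0.87, adjusted p of 0.00421 and 0.00948). Of 14 Trithorax and H3K27 demethylase genes 5 rose and 1 fell in in vitro iSEPs, 6 rose in keratinocytes and 3 rose in in vivo iSEPs, to be read against the same shares of all genes. The demethylase gene Kdm6a rose in all 3 (adjusted p of 0.0404, 0.0486 and 0.0146).

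Cdx1, Cdx2, Cdx4, Evx1, Evx2, Gbx1 and Gbx2, homeobox genes that are not Hox genes, were all under the filter. Gbx2 had 1.05 FPKM on average in ADSCs and was at or near 0 elsewhere. Among non-coding RNAs of the clusters, Hotair, which lies in HoxC between Hoxc11 and Hoxc12, was at 0.367, 0.031 and 0.064 FPKM in ADSCs and listed at 0 in in vivo iSEPs and keratinocytes. Hoxa11os, antisense to Hoxa11, was at 0.325, 0.334 and 0.312 FPKM in ADSCs and at 0, 0.091 and 0.483 in in vitro iSEPs, with the same order of mice there as Hoxa11. Hoxb5os, antisense to Hoxb5, was at 2.58, 1.42 and 0.054 FPKM in in vivo iSEPs and at 0 in in vitro iSEPs. No source used here says whether the libraries mark strand, so reads of a gene and of an RNA antisense to it cannot be told apart.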

How the data were processed

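The authors deposited FPKM values of 24537 genes, with positions in mm10. STAR 2.5.1b, FastQC 0.11.5 and HOMER were used per the submitters' processing notes. Per the file headers, HOMER summed exon reads with its strand option set to plus, kept 1 entry per gene and gave FPKM. The 3 further columns that match no sample used here were left out.

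Whole reads were recovered from low values to give depth (tolerance 0.15 reads), and no count model was used. A gene was kept where 3 or more of the 12 libraries had 1 FPKM or above. limma 3.58.1 (R 4.3.3) was fitted to log2(FPKM + 1) with 4 group means, a mean-dependent variance trend, two-sided tests and Benjamini-Hochberg adjustment, and was tested on simulated data.

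Same-numbered cultures come from the same mouse per the labels. Their deviations from the group means correlated between -0.178 and 0.21 (18 pairs, across genes, median 0.045). Pairs from different mice ranged more widely, from -0.294 to 0.312 (36 pairs, median -0.0135). Mouse was also fitted as a block because of the labels.

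The members, lists and tests were chosen with earlier results of these data known. Full values were given for up to 6 called members of largest rise and fall per comparison. 1 Hox gene is not reported here. Exons of 8 members overlap opposite-strand genes in GENCODE M21: Hoxa3, Hoxa4, Hoxa7, Hoxa11, Hoxb2, Hoxb3, Hoxb5 and Hoxd3. Those of 7 overlap same-strand ones: Hoxa2, Hoxa3, Hoxc10, Hoxd3, Hoxd4, Hoxd10 and Hoxd11.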

Additional observations from a re-analysis of the deposited data

Results flagged for a closer look

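Hoxb5 moved in opposite directions against ADSCs in 2 groups: it fell in in vitro iSEPs and rose in keratinocytes, and the direct comparison of those groups gave a log2 difference of -1.16 (limma, adjusted p = 0.00501). Both opposing calls were close to the threshold (adjusted p of 0.0305 and 0.0257), and each was lost when some single libraries were left out. An antisense RNA, Hoxb5os, overlaps an exon of this gene. Hoxb5 passed the filter only through keratinocytes, so its rise there is partly built in.

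Hoxa3 fell in in vivo iSEPs and rose in keratinocytes, with a log2 difference of -1.26 between them (limma, adjusted p = 0.00107). The fall against ADSCs was lost in the fit within animals, while the difference between the 2 epithelial groups was larger than the spread in each, at 0.028, 0.247 and 0.458 against 2, 1.94 and 1.91 FPKM. Hoxa3 passed the filter only through keratinocytes, so its higher level there is partly built in. Its exons overlap the opposite-strand genes Gm29430, Hoxaas2 and Hoxaas3 and the same-strand Gm28308.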

How the results depend on the processing

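Counts of called Hox genes are given as in the report first. A filter at 5 FPKM, which tests fewer genes, gave 0 in place of 1 higher and 6 in place of 13 lower for in vitro iSEPs against ADSCs, 1 for 4 and 7 for 14 for in vivo iSEPs, and 0 for 3 and 7 for 11 for keratinocytes. Against keratinocytes it gave 2 for 8 lower in in vitro iSEPs and 2 for 5 higher and 1 for 4 lower in in vivo iSEPs, and between both kinds of iSEP 1 for 2 and 3 for 5. Fitting only the groups compared gave 2 for 1 higher in in vitro iSEPs against ADSCs, 2 for 5 and 2 for 4 in in vivo iSEPs against keratinocytes, and 0 for 2 and 1 for 5 between both kinds of iSEP, where 1 gene in all was called in place of 201. Hoxb2 and Hoxd9 then had limma adjusted p of 0.161 and 0.312. A pseudocount of 0.1 gave 1 for 2 higher there. The cause was not tested.

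Leaving out 1 library gave, for higher and lower genes, 1 to 2 and 11 to 13 in in vitro iSEPs against ADSCs, 4 to 4 and 12 to 14 in in vivo iSEPs, and 2 to 3 and 11 to 13 in keratinocytes. It gave 5 to 10 and 7 to 10 for in vitro iSEPs against keratinocytes, 3 to 6 and 2 to 5 for in vivo iSEPs against keratinocytes, and 1 to 5 and 5 to 6 between both kinds of iSEP. Leaving out the in vivo iSEPs of mouse 3 in comparisons without that group was added after seeing the data.

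Fitting mouse as a replicate block gave 1 and 13, 4 and 12, and 3 and 11 against ADSCs in that order, then 7 and 8, 5 and 3, and 3 and 5. It changed no other call of a Hox gene than those named in the report. Between both kinds of iSEP it called 128 genes in all in place of 201.

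A common median in every library moved the share of called genes that were higher from 59.7% to 47.3% in in vitro iSEPs, 57.9% to 48.1% in in vivo iSEPs and 61.4% to 46.8% in keratinocytes against ADSCs. Of Hox genes it called 1 and 13, 4 and 15, and 2 and 13, with Hoxb2 added as lower in in vivo iSEPs and Hoxb3 and Hoxd8 in keratinocytes. Of 54 calls of members named by rule none reversed in any alternative run, and 40 held in every one.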
